A study of Mus musculus with 8 samples.

Results

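*Cmss1* and *Filip1l* are a pair of protein coding genes at the same place on mouse chromosome 16, and their rows were taken by gene name, 2 of the 46040 genes of the count table. *Cmss1* was chosen because of its difference between the groups of these libraries, and *Filip1l* because it lies inside *Cmss1*. Their difference between the groups is therefore given as a description, with no test. The libraries are from the left ventricles (LVs) of 8 mice after angiotensin II (angII) infusion at 0.1 mg/kg/h for 14 days, 1 RNA sequencing library per mouse. The mice were male, of the strain C57BL/6 and 5 to 7 months old when the pumps were placed. In the control group the mice were wild-type littermates, and in the other group (VEGFR1_TK -/-) both copies of *Flt1*, which codes for VEGFR-1, were without the tyrosine kinase domain in every cell type. All 8 mice received angII, so the comparison holds no untreated heart, and it covers the animals that survived the infusion. The comparison addresses the question of which cardiac transcripts differ when VEGFR-1 signaling is absent under pressure overload.

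For every library, the title names the opposite genotype to its tag and library name. Grouping here followed the tag, 4 control tagged and 4 TK-/- tagged. If the titles are right, every fold change below has the opposite sign. The library names also hold the word cardiomyo, while the source field gives LV tissue. Total counts lay between 11449137 and 16239670 per library. *Flt1* was higher in the TK-/- tagged libraries, by 1.19 on the log2 scale (SE 0.12; FDR of 0.00808, edgeR's quasi-likelihood test). Gene counts include transcripts without the kinase domain, so they do not decide between the labels.

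CMSS1 is a nuclear protein named after its yeast homolog, which is linked to the making of the small ribosomal subunit. Ribosomes are assembled in the nucleolus, where a large complex, the small-subunit processome, folds and cuts the precursor RNA, and a growing cardiomyocyte depends on this supply of ribosomes. FILIP1L is a coiled-coil protein related to FILIP1, which binds filamin, the protein that cross-links actin filaments. FILIP1L has been described as a restraint on proliferation and migration, first in endothelial cells.

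The genes are transcribed from opposite strands. *Cmss1* (ENSMUSG00000022748) occupies bases 57302000 to 57606864 of chromosome 16 (GRCm38, minus strand), and *Filip1l* (ENSMUSG00000043336) bases 57353093 to 57573126 (plus strand). In the annotation GENCODE M21, all of *Filip1l* (220.0 kb) falls inside the first intron of the 10-exon *Cmss1* transcript that has the longest coding sequence. This intron is 283.1 kb long. The exons of the genes share 0 bases, and the closest exons are 7888 bases apart. Exonic reads of the one are therefore not exonic reads of the other. Unspliced RNA of either gene crosses exons of the other. The methods do not state whether the counting used strand, so reads of such RNA could have been counted for the other gene. Each gene has 3 annotated transcripts, which a count per gene does not separate.

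**Figure D1:**
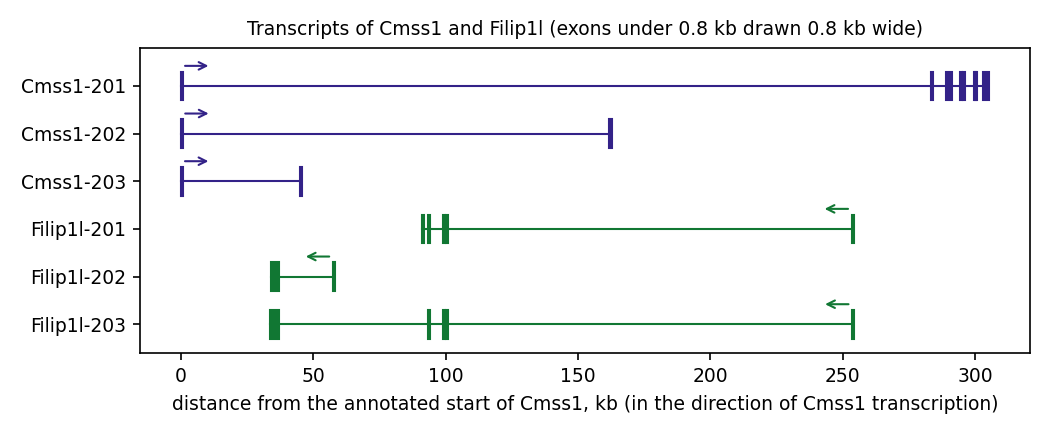
Annotated transcripts of Cmss1 (blue) and Filip1l (green) by distance in kb from the start of Cmss1, with exons as boxes, introns as lines and arrows for the direction of transcription. All 3 Filip1l transcripts lie in the long first intron of the 10-exon Cmss1 transcript and run against it.

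The start regions are shown because they are the places where the transcription of these overlapping genes begins. *Cmss1* has 1 RefSeq start window, at chr16:57606838-57607117 on the minus strand, and *Filip1l* has 2, at chr16:57353027-57353306 and at chr16:57548992-57549271 on the plus strand (GRCm38.p6). Each window holds 250 bases before the start and 30 bases after it, printed 5′ to 3′ on the strand of the gene, with capitals for a match to a searched motif.
Cmss1 start: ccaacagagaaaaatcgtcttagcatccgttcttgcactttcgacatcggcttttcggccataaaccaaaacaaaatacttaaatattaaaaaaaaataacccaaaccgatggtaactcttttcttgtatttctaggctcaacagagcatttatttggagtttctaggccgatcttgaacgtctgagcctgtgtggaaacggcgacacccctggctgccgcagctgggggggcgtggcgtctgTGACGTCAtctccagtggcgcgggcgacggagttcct
Filip1l distal start: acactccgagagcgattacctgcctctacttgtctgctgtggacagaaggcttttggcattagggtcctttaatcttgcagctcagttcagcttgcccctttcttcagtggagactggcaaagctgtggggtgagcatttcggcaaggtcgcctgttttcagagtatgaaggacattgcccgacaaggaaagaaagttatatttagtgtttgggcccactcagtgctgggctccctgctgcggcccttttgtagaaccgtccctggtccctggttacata
Filip1l proximal start: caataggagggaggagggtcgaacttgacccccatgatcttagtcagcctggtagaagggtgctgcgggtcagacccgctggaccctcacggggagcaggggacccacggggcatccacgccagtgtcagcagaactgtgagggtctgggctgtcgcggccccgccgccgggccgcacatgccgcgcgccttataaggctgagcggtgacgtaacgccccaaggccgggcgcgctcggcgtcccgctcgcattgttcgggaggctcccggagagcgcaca
The windows were searched on both strands for TGACGTCA (the cAMP response element), TATAAA (the TATA box), GGGCGG (the GC box), CACGTG (an E-box) and CCAAT, motifs chosen after the sequences had been read. Only the *Cmss1* window held a match, TGACGTCA, which spans the start. This motif was in 1.74% of 32851 RefSeq windows of the same length, TATAAA in 13.1%, GGGCGG in 34.7%, CACGTG in 6.79% and CCAAT in 36.1%. The *Filip1l* windows differed in base composition, with a GC content of 51.4% at the distal and 68.2% at the proximal start, against 48.2% for *Cmss1*. The proximal window held 28 CpG dinucleotides, the distal window 7 and the *Cmss1* window 18.

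*Cmss1* was higher in the TK-/- tagged LVs. Its normalized CPM, the count relative to a TMM-adjusted library total, was 44.5, 33.9, 27.0 and 35.1 in the control tagged replicates 1 to 4. In the TK-/- tagged replicates 1 to 4 it was 52.7, 61.3, 48.6 and 57.9. Every TK-/- tagged library was thus above every control tagged library, the closest being control tagged replicate 1 and TK-/- tagged replicate 3. Groups that do not overlap were found in 4.98% of the 13542 genes tested, 2.46% with the TK-/- tagged and 2.53% with the control tagged group on top, and nothing is read from it for a gene chosen by this contrast. The means were 35.1 ± 7.17 and 55.1 ± 5.58 normalized CPM (SD, n = 4 each). The fitted difference was 0.65 on the log2 scale (SE 0.14), or 1.57-fold. Among all genes tested, 2.54% had a larger absolute log2 fold change, and the median absolute log2 fold change was 0.13.

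The reads behind these values numbered 402 to 594 in the control tagged and 615 to 726 in the TK-/- tagged libraries. Counting error alone amounts to 3.71% to 4.99% of a count of this size. The coefficient of variation between mice was 20.4% in the control tagged and 10.1% in the TK-/- tagged group, so the spread of *Cmss1* was larger than counting error. Its SD within groups on the log2 scale was 0.23, near the median of 0.21 over all genes tested.

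*Filip1l* was at a lower mean level in the TK-/- tagged LVs, and its groups overlapped. Its normalized CPM was 35.6, 44.1, 30.6 and 43.5 in the control tagged replicates 1 to 4. In the TK-/- tagged replicates 1 to 4 it was 32.8, 29.0, 29.0 and 36.0. Control tagged replicates 2 and 4 were above all other libraries, while control tagged replicates 1 and 3 lay within the range of the TK-/- tagged group. The means were 38.4 ± 6.50 and 31.7 ± 3.39 normalized CPM (SD, n = 4 each). The fitted difference was −0.28 on the log2 scale (SE 0.13). A larger absolute log2 fold change was found in 20.2% of the genes tested. The reads numbered 455 to 607 per control tagged and 327 to 452 per TK-/- tagged library.

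**Figure D2:**
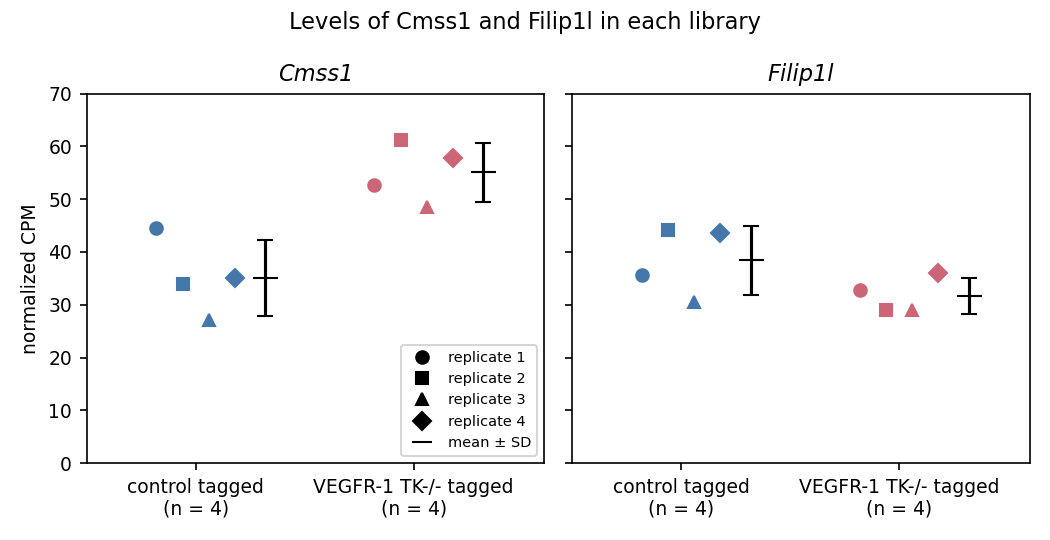
Normalized CPM of Cmss1 (left) and Filip1l (right) in each library, with the replicate number as symbol, the group as colour and the mean ± SD (n = 4) in black beside each group. The Cmss1 groups are apart, at 27.0 to 44.5 and 48.6 to 61.3, and the Filip1l groups overlap.

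Per length, *Cmss1* was the more abundant of the pair in all 8 libraries. Its mean over the libraries was 22.6 normalized CPM per kb of annotated exon, against 6.57 for *Filip1l*. On this scale *Cmss1* was above 85.7% and *Filip1l* above 61.1% of the 13513 tested genes with an annotated length. With the length of the longest transcript in place of all exons, the levels were 39.2 and 7.88 normalized CPM per kb. The annotation used for lengths is a later release than that used for counting.

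The reads of both genes within a library can be set against each other without any scaling between libraries. *Filip1l* took 44.4% of the reads of the pair in control tagged replicate 1 (95% Wilson interval 41.5% to 47.4%), 56.5% in replicate 2 (53.5% to 59.5%), 53.1% in replicate 3 (49.7% to 56.4%) and 55.3% in replicate 4 (52.2% to 58.4%). In the TK-/- tagged replicates 1 to 4 the share was 38.4% (35.5% to 41.3%), 32.2% (29.4% to 35.1%), 37.4% (34.4% to 40.4%) and 38.4% (35.6% to 41.2%). These intervals cover counting error only. *Filip1l* held most of the reads in 3 control tagged libraries and the smaller part in the fourth and in every TK-/- tagged library. The mean share was 52.3% ± 5.46 and 36.6% ± 2.98 (SD, n = 4 each). On the log2 scale, the ratio of *Filip1l* to *Cmss1* differed by −0.93 between the TK-/- tagged and the control tagged group (pooled SD 0.26). The share and the ratio contain the *Cmss1* difference of 0.65, for which the gene was chosen, beside the −0.28 of *Filip1l*. They are therefore not a separate result.

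**Figure D3:**
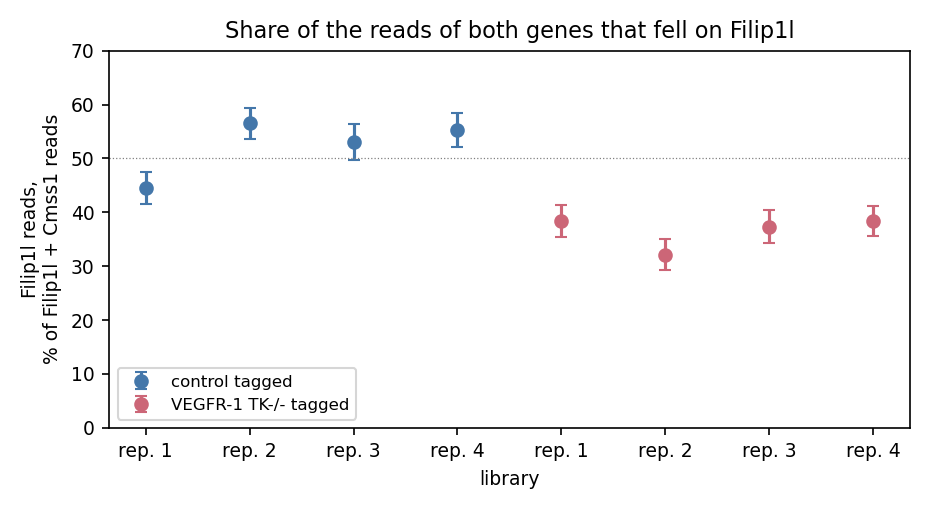
Share of the reads of Cmss1 and Filip1l together that fell on Filip1l, in percent, for each library, with 95% Wilson intervals as bars and a dotted line at equal shares. The control tagged libraries lie between 44.4% and 56.5% and the TK-/- tagged libraries between 32.2% and 38.4%. The share contains the difference of Cmss1, for which that gene was chosen.

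The log2 fold change of *Cmss1* was positive and that of *Filip1l* negative under each of 15 alternatives, 7 of test, scaling, filter or block and 8 with 1 library left out. *Cmss1* ranged from 0.54, without control tagged replicate 3, to 0.78, without control tagged replicate 1. *Filip1l* ranged from −0.37, without control tagged replicate 3, to −0.20, without control tagged replicate 2. *Cmss1* was chosen by this contrast and its groups do not overlap, so leaving out 1 library could hardly change its sign. The alternatives also reuse the same libraries, so nothing is read from the constant sign of *Cmss1*.

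**Figure D4:**
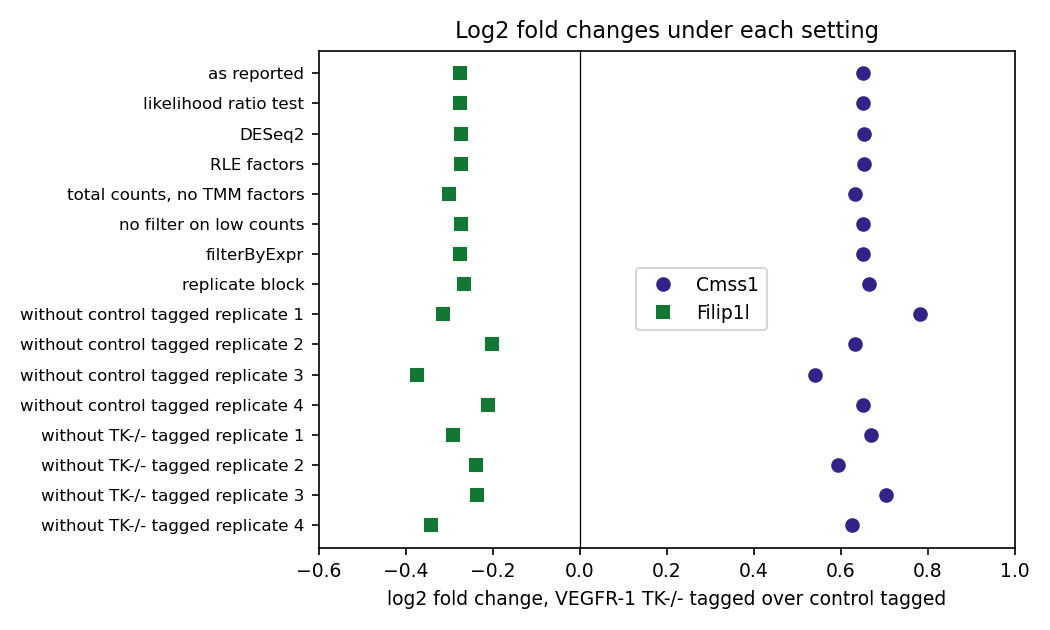
Log2 fold change of Cmss1 (circles) and Filip1l (squares) between TK-/- tagged and control tagged libraries as reported and under each alternative. Cmss1, which was chosen by this contrast, stays between 0.54 and 0.78 and Filip1l between −0.37 and −0.20.

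Within groups, the genes were not shown to vary together. The deviations of log2 normalized CPM from the group means had a Pearson r of 0.30 and a Spearman rho of 0.33 over the 8 libraries (2-sided exact permutation test within groups, 576 pairings, p = 0.615 and p = 0.514; 1 relation tested, so no adjustment applied). Control tagged replicate 3 was low for both genes, by 0.35 for *Cmss1* and 0.31 for *Filip1l* on the log2 scale. Without the 2 libraries farthest in *Cmss1*, control tagged replicates 1 and 3, r was 0.19 (n = 6, exact permutation p = 0.729). Without control tagged replicate 3 alone, r was −0.42 (exact permutation p = 0.403), so the sign depended on which libraries were kept.

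The genes most like each member were sought by the same deviations among 10406 genes with a mean of at least 5 normalized CPM. For *Cmss1* they were *Smndc1*, a splicing factor (r = 0.99), *Rita1*, a tubulin-binding partner of the Notch factor RBPJ (0.98), *Kpna6*, an importin (0.97), *Cd14*, a coreceptor for bacterial lipopolysaccharide (0.96), and *Crem*, a cAMP-responsive transcription factor (0.96). For *Filip1l* they were *Adap2*, an Arf GTPase-activating protein, *Usp33*, a deubiquitinase, *Hook3*, a microtubule tether, *Cebpg*, a transcription factor, and *E230013L22Rik*, with r between 0.98 and 0.99. Of the 10406 genes compared, 45 had an r of at least 0.9 with *Cmss1* and 239 with *Filip1l*. How many genes reach such an r with other genes was not examined, so nothing is read from these counts. These values describe 8 libraries that share their scaling, and 29.4% of the genes had a higher r with *Cmss1* than *Filip1l* did. Between the groups, the log2 fold changes of the 5 genes most like *Cmss1* lay between −0.31 for *Cd14* (SE 0.22) and 0.35 for *Rita1* (SE 0.17).

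Of 34 other genes annotated within 1 Mb of *Cmss1*, 9 were tested. None of the 9 was called at an FDR under 0.1 and a change of 1.5-fold or more by edgeR's quasi-likelihood test, against 0.00738% of all genes tested. An unadjusted p under 0.05 was found for 1 of the 9, against 8.96% of all genes (3.32% higher and 5.64% lower in the TK-/- tagged group). By the likelihood ratio test and by DESeq2, 0 of the 9 were called, against 53 and 32 of the 13542 genes tested. In 5 genes the log2 fold change was positive and in 4 negative, with a median of 0.02. The gene under this p was *Col8a1*, which codes for a short-chain collagen of vessel walls and lies 17.4 kb upstream of the *Cmss1* start, the nearest tested neighbour on that side. Its normalized CPM was 53.0, 103, 37.7 and 62.5 in the control tagged replicates 1 to 4 and 40.6, 32.7, 16.04 and 54.8 in the TK-/- tagged replicates 1 to 4. The groups overlapped, and control tagged replicate 2 stood highest. The log2 fold change was −0.83 (SE 0.35; edgeR's quasi-likelihood test gave an unadjusted p = 0.0340 and FDR = 0.522), and −0.50 without control tagged replicate 2. The nearest tested neighbour past the other end, *Tbc1d23*, a regulator of vesicle capture at the Golgi 70.5 kb away, averaged 20.2 ± 2.21 and 20.6 ± 0.935 normalized CPM (SD, n = 4 each), with a log2 fold change of 0.02 (SE 0.11). The log2 fold changes of the other tested neighbours lay between −0.40 for *Tmem45a* and 0.19 for *Nit2*.

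**Figure D5:**
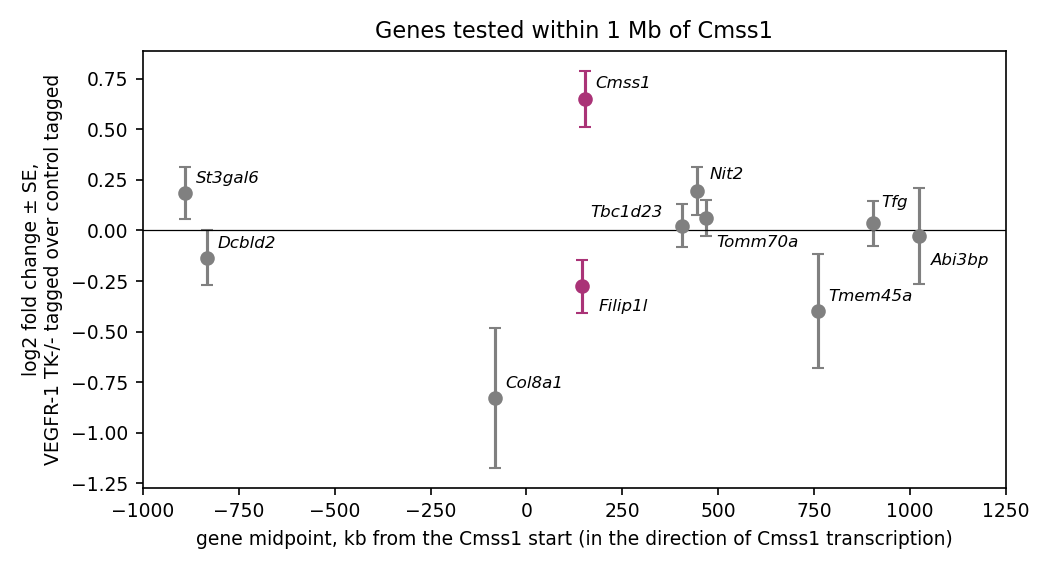
Log2 fold change (± SE) of the tested genes within 1 Mb of Cmss1 by the distance of their midpoint from the Cmss1 start in kb, with Cmss1 and Filip1l in purple and their neighbours in grey. Cmss1 is at 0.65, Filip1l at −0.28 and Col8a1 at −0.83, while the other neighbours lie between −0.40 and 0.19.

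Other factors of small-subunit biogenesis, the pathway to which the yeast homolog of CMSS1 is linked, had log2 fold changes on both sides of 0. All 60 genes of the list were tested, and 32 had a positive and 28 a negative log2 fold change, with a median of 0.02, against −0.00119 over all genes tested. None was called by the quasi-likelihood test, the likelihood ratio test or DESeq2, which called 1, 53 and 32 of the 13542 genes tested. By the quasi-likelihood test, 3 of 60 had an unadjusted p under 0.05 against 8.96% of all genes tested. Of these, *Riok2*, a kinase of late subunit maturation, averaged 20.8 ± 0.306 and 24.1 ± 0.910 normalized CPM (SD, n = 4 each), with a log2 fold change of 0.22 (SE 0.09). *Utp3*, a processome component, had a log2 fold change of 0.22 (SE 0.10). *Dhx37*, an RNA helicase that releases the processome, had one of −0.26 (SE 0.10). The FDRs of the 3 genes lay between 0.506 and 0.532. The most abundant member, *Emg1*, an RNA methyltransferase, had a log2 fold change of 0.16 (SE 0.09), and the least abundant, *Rcl1*, one of 0.09 (SE 0.17). The summed level of the list was 1445 ± 34.1 and 1455 ± 30.2 normalized CPM (SD, n = 4 each).

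In a list of filamins and their partners, 21 of 22 genes were tested, 7 with a positive and 14 with a negative log2 fold change and a median of −0.07. None was called by the quasi-likelihood test, the likelihood ratio test or DESeq2, against 1, 53 and 32 of the 13542 genes tested. By the quasi-likelihood test, 2 (9.52%) had an unadjusted p under 0.05 against 8.96% of all genes. *Synpo2l*, a Z-disc protein, averaged 461 ± 109 and 292 ± 59.8 normalized CPM (SD, n = 4 each), with a log2 fold change of −0.66 (SE 0.19) and an FDR of 0.442 by edgeR's quasi-likelihood test. *Flnc*, the filamin of striated muscle, averaged 934 ± 129 and 718 ± 117, a log2 fold change of −0.38 (SE 0.15, FDR = 0.506). *Xirp2*, an actin-binding partner of filamin C, had a log2 fold change of −0.31 (SE 0.14, FDR = 0.559). *Hspb7*, the most abundant of the list, and *Arhgap24*, the least abundant, had log2 fold changes of −0.05 (SE 0.14) and −0.15 (SE 0.10). *Filip1*, the paralog of *Filip1l* and named after its values were seen, averaged 60.0 ± 11.6 and 56.0 ± 2.96 normalized CPM (SD, n = 4 each). Its difference of −0.10 on the log2 scale (SE 0.12) was closer to 0 than that of *Filip1l*.

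Most markers of vascular cells, fibroblasts and leukocytes had a negative log2 fold change, like *Filip1l*. In bulk tissue, fewer cells of a type and less RNA per cell cannot be told apart. All markers were tested, and the log2 fold change was negative in 9 of 10 endothelial, 9 of 11 smooth muscle and pericyte, 8 of 8 fibroblast, 7 of 8 leukocyte and 2 of 8 cardiomyocyte markers, against a positive value in 49.7% of all genes tested. The medians were −0.26, −0.43, −0.30, −0.24 and 0.18. The summed endothelial level was 1967 to 2449 normalized CPM in the control tagged and 1800 to 1954 in the TK-/- tagged libraries. That of smooth muscle and pericytes was 1489 to 2095 and 1062 to 1614, that of fibroblasts 1670 to 2758 and 794 to 2208, that of leukocytes 387 to 509 and 260 to 399, and that of cardiomyocytes 62373 to 96603 and 80670 to 99877. None of the 45 markers was called by edgeR's quasi-likelihood test (0.00738% of all genes), and 12 (26.7%) had an unadjusted p under 0.05 against 8.96% of all genes. By class these were 4 endothelial, 5 smooth muscle and pericyte, 0 fibroblast, 1 leukocyte and 2 cardiomyocyte markers. The 5 were *Kcnj8*, *Pdgfrb*, *Notch3*, *Cspg4* and *Rgs5*, with log2 fold changes between −0.65 and −0.48. *Acta2* was at −0.43 (SE 0.36) and *Abcc9* at −0.10, while *Myh11*, *Tagln*, *Cnn1* and *Lmod1* lay between −0.05 and 0.04. By the likelihood ratio test and by DESeq2, which called 53 and 32 of the 13542 genes tested, 1 marker was called, *Kcnj8*, a potassium channel of pericytes. The cardiomyocyte sum was the highest, the endothelial, mural and fibroblast sums were far from 0 in every library, and the lowest marker, *Cd3e* of T cells, was at a mean of 0.512 and 0.691 normalized CPM. The part of cell composition in the levels of *Cmss1*, *Filip1l* and *Col8a1* was not tested.

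Beside *Cmss1*, a list of 14 genes that can collect reads of ribosomal RNA was examined, because the labels describe depletion of ribosomal RNA where the methods describe poly-A selection. Of its 12 tested genes, 7 had a positive and 5 a negative log2 fold change, with a median of 0.05, and 0 had an unadjusted p under 0.05 by edgeR's quasi-likelihood test (1 by the likelihood ratio test and 0 by DESeq2), against 8.96% of all genes tested. None was called by these tools (0.00738% of all genes by the quasi-likelihood test, 53 of 13542 genes by the likelihood ratio test and 32 by DESeq2). The most abundant, *Gm42418*, averaged 457 ± 84.8 and 522 ± 54.4 normalized CPM (SD, n = 4 each), with a log2 fold change of 0.19 (SE 0.14). *Lars2* and *Gm26917* had log2 fold changes of 0.21 (SE 0.11) and 0.28 (SE 0.19). *Rn18s-rs5*, the least abundant, had 0 to 13 reads per control tagged and 2 to 42 reads per TK-/- tagged library. Its log2 fold change, the highest of the list, was 2.33 (SE 1.07). The summed level was 669 to 852 normalized CPM in the control tagged and 800 to 956 in the TK-/- tagged libraries, and its part in the level of *Cmss1* was not tested.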

How the data were processed

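LV RNA of 8 mice was sequenced with paired-end reads of 100 bases. Reads were trimmed by the authors (Trim Galore 0.4.4, Phred cutoff 30). They aligned these to GRCm38 with STAR 2.5.4b (mismatch share 0.04, at most 10 alignments) and counted them on GENCODE M16 genes with featureCounts. They deposited raw counts, one column per library. Strand and multi-mapping settings are not given in the sources used here. Counting reads with several alignments would add reads of similar sequences elsewhere, and ignoring strand would add antisense reads.

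Symbols, coordinates and lengths came from GENCODE M21 (GRCm38), and start windows from RefSeq (GRCm38.p6), in which both genes were found. A gene was tested if 2 or more libraries reached a CPM of 1 (13542 genes). TMM scaling and the quasi-likelihood test of edgeR 4.0.16 were used in R 4.3.3 on all 8 libraries without covariates, with Benjamini-Hochberg adjustment (FDR) over all genes tested. SEs are the absolute log2 fold change over the root of the F statistic. The authors used the likelihood ratio test, an alternative here beside DESeq2 1.42.0. Log2 normalized CPM used a prior count of 2. Replicates came from separate mice, and library pairs of one group differed by more than sampling noise (chi-square per degree of freedom 7.17 to 54.2).

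Replicate numbers were not used as pairs in the main fit. The correlations of same-numbered deviations were −0.03, 0.03, 0.34 and −0.06. TK-/- tagged replicate 3 was the best match in its group for control tagged replicate 3 and also for control tagged replicate 4. The 0.34 therefore does not show a pair. On simulated counts of 13392 genes, the quasi-likelihood test recovered 81.4% of 199 genes changed by 1 on the log2 scale, with 6.90% false calls. Genes were drawn independently and smaller changes, such as those of the pair, were not simulated. This share therefore does not give the power for them. The members, lists and tests were chosen with earlier results of these data known. Genes were named by a rule: the pair, *Flt1*, the nearest neighbours and those under an unadjusted p of 0.05, the 5 genes most like each member, and in each list of the pathways the 3 lowest p and the most and least abundant. *Filip1*, *Tmem45a*, *Nit2*, *Cd3e*, *Kcnj8* and the other smooth muscle and pericyte markers were named after their values were seen. Libraries of other experiments, reads and counts per exon were not analysed here.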

Additional observations from a re-analysis of the deposited data

Results flagged for a closer look

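Among 54 groups of 4 libraries examined, 2 held a library far from the others, and chance alone flags about 1 group in 20. *Utp3* was at 21.3 normalized CPM in control tagged replicate 3, while the other control tagged libraries lay between 25.4 and 26.0. *Rn18s-rs5* was at 0.973 normalized CPM in control tagged replicate 1 and between 0 and 0.145 in the other control tagged libraries. Neither library stood apart in this way for *Cmss1*, *Filip1l* or their ratio.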

How the results depend on the processing

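The number of genes called was 1 by the quasi-likelihood test, 53 by the likelihood ratio test, 32 with DESeq2 and 23 when genes of low count were kept, and 1 to 3 with 1 library left out. The number of genes with an unadjusted p under 0.05 was 1213, and 707 to 1356 with 1 library left out, 707 being without TK-/- tagged replicate 2. The number of neighbours of *Cmss1* under this p was 0 by DESeq2 and 0 to 1 with 1 library left out. Of the small-subunit list, 1 gene was under this p with total counts, 1 without the filter and 1 with the replicate block, and 0 to 5 with 1 library left out (0 without TK-/- tagged replicate 2 and 5 without control tagged replicate 2). Of the filamin list it was 5 without the filter and 1 to 3 with 1 library left out. The r of *Cmss1* and *Filip1l* was −0.38 without centring on the group means (exact permutation p = 0.338), 0.59 with total counts (exact permutation p = 0.219) and −0.42 to 0.70 with 1 library left out. With 1 library left out, the log2 fold change of *Tbc1d23* ranged from −0.050 to 0.072 and that of *Rcl1* from −0.026 to 0.16. Moves of over 1.5 times without a change of sign took *Hspb7* to between −0.13 (without TK-/- tagged replicate 3) and −0.00065 (without TK-/- tagged replicate 2), *Arhgap24* to −0.097 (without TK-/- tagged replicate 1) and *Xirp2* to −0.20 (without control tagged replicate 2). They took *Lars2* to 0.12 (without control tagged replicate 4), *Gm26917* to 0.16 and 0.13 (without control tagged replicate 3 or TK-/- tagged replicate 1) and *Gm42418* to 0.11, 0.12 and 0.12 (without control tagged replicate 3, control tagged replicate 4 or TK-/- tagged replicate 1). They also took *Rn18s-rs5* to 4.62 (without control tagged replicate 1). The cause was not tested.

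The replicate number as a block gave 1 called gene and log2 fold changes of 0.67 for *Cmss1* and −0.27 for *Filip1l*. Of the counts above it moved that of the small-subunit list. Only for control tagged replicate 3 was the same-numbered library the best match in the other group. *Cmss1* and *Filip1l* had at least 327 reads in every library, while *Rn18s-rs5* had 0 in some, where depth limits its value.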
